A study of Rattus norvegicus with 45 samples.

Results

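Hepcidin, the liver hormone that sets how much iron enters the blood, was followed with 7 other genes of iron handling in livers of rats given a triazole antifungal. The 8 genes are Hamp, Slc40a1, Tfrc, Tfr2, Fth1, Ftl1, Id1 and Smad7, and they were read by every probe set that the platform annotation gives 1 of these symbols. That makes 13 of the 31042 probe sets tested, where 14217 genes have a probe set of their own. For 6 genes 11 probe sets name that gene alone, while Fth1 and Ftl1 are each read by 1 probe set that the platform also assigns to near-identical copies. The genes were chosen by a readout of these arrays, the low Hamp scores after 6 h of either compound, so every compound against control value at 6 h is given here as a description, with no p-value and nothing read from whether it passed.

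Adult male Sprague-Dawley rats, 10 weeks old, were dosed by gavage. The dose of myclobutanil was 225 and that of triadimefon 175 mg/kg/day, the remaining rats were controls, and liver RNA was hybridised to Affymetrix Rat Genome 230 2.0 arrays. By the sample titles the 45 arrays form 9 groups of 5, which are myclobutanil, triadimefon and control at 6 h, at 24 h and at 14 days. What the controls were dosed with is not given in the sources used here, the compounds differ in dose, and the series text speaks of 15 livers, with 5 biological replicates per treatment, where the labelling protocol has 3 rats per group. If arrays of a group share a rat, the p-values measure only the spread between these arrays. The tissue label was checked against 10 hepatocyte markers, of which Alb had the highest mean score of all probe sets and the lowest, Tat, lay at the 97.6th percentile. The deposited values are scores on a logarithm-like scale whose base is not stated, with array medians near 0, so differences are in score units and no fold is given. Scores of different probe sets cannot be ranked against each other, and precision is limited by having 5 arrays a group.

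Hepatocytes make and secrete hepcidin, which binds the iron exporter ferroportin (Slc40a1) on macrophages, gut cells and hepatocytes and has it degraded, so that less iron reaches the blood. Bone morphogenetic proteins acting through SMAD proteins drive the hepcidin gene when iron is plentiful, the cytokine IL-6 drives it through STAT3 in inflammation, and anaemia lowers it. Id1 and Smad7 are targets of the same SMAD signal, Tfrc takes up transferrin iron, Tfr2 senses it and the ferritins Fth1 and Ftl1 store iron in the cell.

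The sequences just upstream of Hamp and Smad7 are shown because these are the members whose levels moved together within groups, as described further on. Both are 250-base windows that end at the base before the RefSeq start of the gene in the rat build GRCr8, printed 5′ to 3′ on the strand of the gene, Hamp from chr1:95300272-95300521 on the minus strand and Smad7 from chr18:71263258-71263507 on the plus strand. Capitals mark GGCGCC, the core of the SMAD-binding element known from the human hepcidin promoter, and TTCNNNGAA, the pattern of a STAT site.
Hamp: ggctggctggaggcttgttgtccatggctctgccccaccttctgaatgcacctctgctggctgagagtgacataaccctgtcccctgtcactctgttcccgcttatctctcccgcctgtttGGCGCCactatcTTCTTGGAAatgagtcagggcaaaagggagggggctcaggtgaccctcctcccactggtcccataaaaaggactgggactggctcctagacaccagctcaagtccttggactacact
Smad7: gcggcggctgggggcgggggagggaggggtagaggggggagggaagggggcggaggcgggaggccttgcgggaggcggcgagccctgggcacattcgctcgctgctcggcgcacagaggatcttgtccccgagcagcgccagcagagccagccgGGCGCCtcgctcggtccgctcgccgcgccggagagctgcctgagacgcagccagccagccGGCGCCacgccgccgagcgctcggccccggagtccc
Each of these patterns reads the same on both strands and no match overlapped another. Hamp held GGCGCC at 129 to 124 bases and TTCNNNGAA at 117 to 109 bases before its start. Smad7 held GGCGCC at 96 to 91 and again at 36 to 31 bases, and Tfrc held it at 118 to 113 bases, while the windows of Tfr2, Slc40a1 and Id1 held neither pattern. Of 33469 windows of this length 8.69% held GGCGCC and 7.67% held TTCNNNGAA, so the letters alone are not rare. The promoter table holds 6 of the 8 members.

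Before the results, some arrays stand apart. The array file names end in 11 on 36 arrays, in 12 on 7, and in 21 and 31 on 1 each, and what the ending means is not stated. At 6 h the ending 12 was on myclobutanil arrays 3, 4 and 5 and on triadimefon arrays 1, 2 and 3, and on no control, while control array 2 ended in 31 and control array 3 in 21. Those 2 controls and control array 2 at 24 h also had wider bright ends, with top-percentile scores starting at 3.24, 3.17 and 3.54, as had myclobutanil arrays 2 and 4 at 14 days, with 3.36 and 3.42.

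After 6 h of exposure Hamp was lower in every liver of either compound than in every control. Its scores were 2.29, 0.517, 1.27, 0.619 and 2.61 with myclobutanil and 1.19, 1.07, 2.53, 2.36 and 2.37 with triadimefon, against 3.10, 3.71, 3.82, 3.31 and 3.14 in controls. The highest myclobutanil liver lay 0.488 below the lowest control and the highest triadimefon liver 0.566 below it, and within each compound the livers split widely. Mean scores were 1.46 ± 0.95 with myclobutanil and 1.90 ± 0.71 with triadimefon, against 3.42 ± 0.33 in controls (SD, n = 5 each). The differences were -1.95 ± 0.38 for myclobutanil and -1.51 ± 0.38 for triadimefon (SE), and each was the lowest of all 31042 probe sets in its comparison. In whole liver, fewer cells of a type and less RNA per cell cannot be told apart.

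The fit over all probe sets also covers the contrasts with 6 h, and its threshold of 0.05 is no test of Hamp there, since the gene was chosen on those scores. Of the members it marks Hamp alone in each 6 h comparison, where 0.38% of all probe sets passed with myclobutanil and 0.915% with triadimefon. Groups did not overlap for Hamp with either compound and for 1 of 3 Slc40a1 probe sets with myclobutanil, beside 1.63% of all probe sets with myclobutanil and 2.54% with triadimefon. Of the changes of a compound effect since 6 h, it marks that of myclobutanil to 24 h for Hamp (1.75% of all probe sets), and none to 14 days (0.335%) or for triadimefon to 24 h (3.13%) or 14 days (1.96%). Because all these contrasts hold the values that chose Hamp, nothing is read from these counts. Both compounds were set against the same 5 controls.

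The Hamp differences at 6 h, -1.95 with myclobutanil and -1.51 with triadimefon, were both nearer 0 when the array file-name ending was taken into account. Among arrays ending in 11 the difference was -1.78 with myclobutanil (2 arrays against 3 controls) and -0.82 with triadimefon (2 against 3). The 2 triadimefon arrays of that ending scored 2.36 and 2.37, and the 3 that ended in 12 held both its lowest scores, 1.19 and 1.07, and its highest, 2.53. With every ending fitted as its own level, a fit chosen after the data had been seen, the differences were -1.55 and -1.11. The highest controls, arrays 2 and 3 at 3.71 and 3.82, ended in 31 and 21 and served both comparisons. The part of the ending in these values was not tested.

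**Figure D1:**
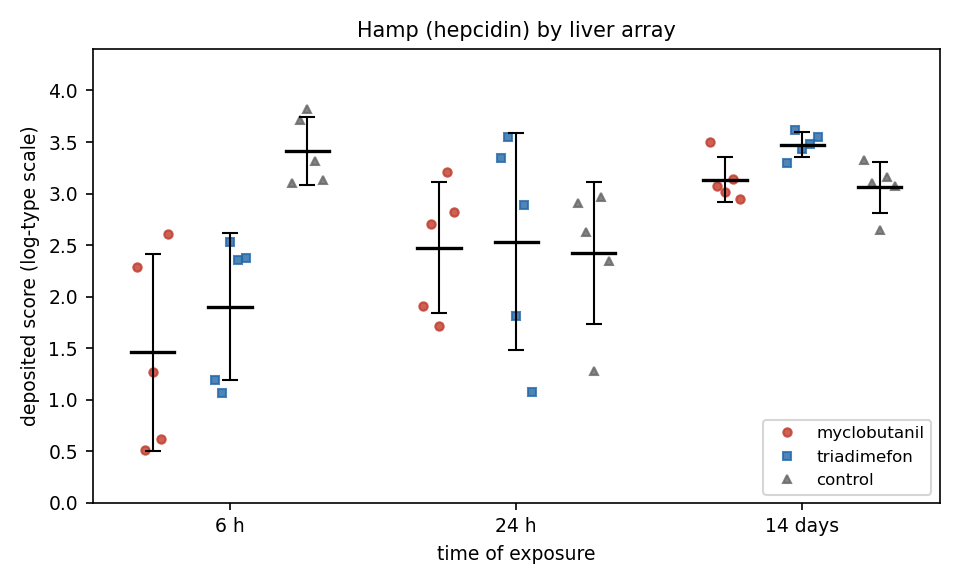
Hamp score (y axis, log-type scale) of every liver array at 6 h, 24 h and 14 days, with myclobutanil as circles, triadimefon as squares and controls as triangles, and a bar with whiskers for the group mean and SD of 5 arrays. At 6 h the compound livers sit between 0.517 and 2.61 and the controls between 3.10 and 3.82, while at 24 h all 3 groups overlap.

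At 24 h the Hamp scores of all 3 groups overlapped and neither compound passed against control. They were 1.91, 2.71, 1.72, 3.21 and 2.83 with myclobutanil and 3.34, 3.55, 1.81, 2.89 and 1.08 with triadimefon, against 2.91, 2.63, 1.28, 2.97 and 2.34 in controls. Every group held high and low livers, and the lowest were a triadimefon liver at 1.08 and a control at 1.28. The difference was 0.05 for myclobutanil (95% interval -0.73 to 0.83, limma adjusted p = 0.96) and 0.11 for triadimefon (-0.67 to 0.89, adjusted p = 0.9). The intervals leave room for sizeable changes, since the spread of Hamp within groups, an SD of 0.636 pooled over the 9 groups, was wider than that of 99.98% of probe sets.

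By 14 days Hamp was near its control level with myclobutanil and somewhat above it with triadimefon. Scores were 3.50, 3.07, 3.02, 3.14 and 2.95 with myclobutanil and 3.30, 3.62, 3.43, 3.48 and 3.55 with triadimefon, against 3.32, 3.11, 2.65, 3.16 and 3.07 in controls. Of the 5 triadimefon livers 4 lay above the highest control, and the fifth lay just under it. The difference was 0.41 ± 0.38 for triadimefon (SE, n = 5 each, limma adjusted p = 0.54), and 0.07 for myclobutanil (adjusted p = 0.96). No member gene passed at 14 days, where 6.69% of all probe sets did with triadimefon and 0.792% with myclobutanil. An exact two-sided permutation test on triadimefon against control gave p = 0.016, which became 0.13 after adjustment over 8 such comparisons, and a limma fit of these 2 groups alone, which uses their small SDs of 0.122 and 0.249, gave an adjusted p of 0.037.

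The control livers themselves were not level over time. Control Hamp averaged 3.42 ± 0.33 at 6 h, 2.42 ± 0.69 at 24 h and 3.06 ± 0.25 at 14 days (SD, n = 5 each). All 5 controls at 24 h lay below all 5 at 6 h, a difference of -0.99 ± 0.38 (SE) that is given as a description because the 6 h controls were part of the choice of Hamp. Controls at 14 days against 24 h differed by 0.64 ± 0.38 (limma adjusted p = 0.35). Set against controls of the same time, the myclobutanil difference was higher by 2.00 ± 0.54 at 24 h and by 2.03 ± 0.54 at 14 days than at 6 h, and the triadimefon difference by 1.62 ± 0.54 and 1.93 ± 0.54 (SE). Among the 9 group means in rising order, myclobutanil at 6 h was lowest and triadimefon at 14 days highest, and no step between neighbours exceeded 2 SE of that step.

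The iron exporter that hepcidin acts on, Slc40a1, fell in livers given myclobutanil for 24 h. All 3 of its probe sets passed, by -0.25 ± 0.07 (adjusted p = 0.027), -0.29 ± 0.08 (0.013) and -0.18 ± 0.04 (0.002) in limma, and each was lower in 5 of 5 livers than the control mean (SE, n = 5 each). It was the 1 member gene to pass at 24 h with myclobutanil, in a comparison where 8.47% of all probe sets passed and 5.42% were lower. On the second probe set the scores were 1.52, 1.45, 1.61, 1.63 and 1.62 with myclobutanil and 1.57, 1.58, 1.49, 1.81 and 1.87 with triadimefon, against 1.71, 2.19, 1.87, 1.70 and 1.81 in controls. There the myclobutanil and control groups did not overlap, as held for 6.35% of all probe sets, while they overlapped on the first probe set (1.48 to 1.67 against 1.64 to 2.20 in controls) and on the dim one (0.05 to 0.25 against 0.17 to 0.38). On the second, 3 triadimefon livers lay below every control while 2 lay among them.

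Control array 2 decided part of this call. Without it the first probe set differed by -0.16 (adjusted p = 0.18) and the second by -0.21 (0.086). The other, dim one, which lies near the array median, kept its call whichever array was left out. Over the 45 arrays this dim probe set correlated with the first and second by only 0.30 and 0.39, where those had 0.96 between them. Its controls averaged 0.32 at 24 h, against 0.19 at 6 h and 0.22 at 14 days, and its myclobutanil livers of 24 h averaged 0.14. The first probe set was also not called without control array 3 or myclobutanil array 1 or 2, nor after quantile normalization (-0.16, adjusted p = 0.073) or in a fit of these 2 groups alone (0.16).

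Markers of Kupffer cells, the liver macrophages that carry much of the ferroportin of this organ, were lower in the same livers. All 10 measured markers fell with myclobutanil at 24 h, with a median difference of -0.39 where that of all probe sets was -0.01, and none passed with triadimefon. Of 8 sinusoidal endothelial markers 2 fell with myclobutanil, of 8 stellate cell markers 1 fell, and none of the 10 hepatocyte markers passed. In this comparison 5.42% of all probe sets were called lower. The median differences of these lists were -0.10, -0.15 and -0.23, so lower scores were not confined to the macrophage markers. Clec4f, a receptor of Kupffer cells, fell by 0.79 and the complement gene C1qa by 0.51. The mean score of the 10 markers ran from 0.783 to 1.05 with myclobutanil and from 1.10 to 1.48 with triadimefon, against 1.10 to 1.61 in controls. After group means were subtracted, Slc40a1 followed that marker mean over the 45 arrays, with r = 0.72, 0.79 and 0.33 for the 3 probe sets (Spearman 0.68, 0.75 and 0.47). These points share array-wide scaling, and the part of macrophage content in the Slc40a1 difference was not tested.

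**Figure D2:**
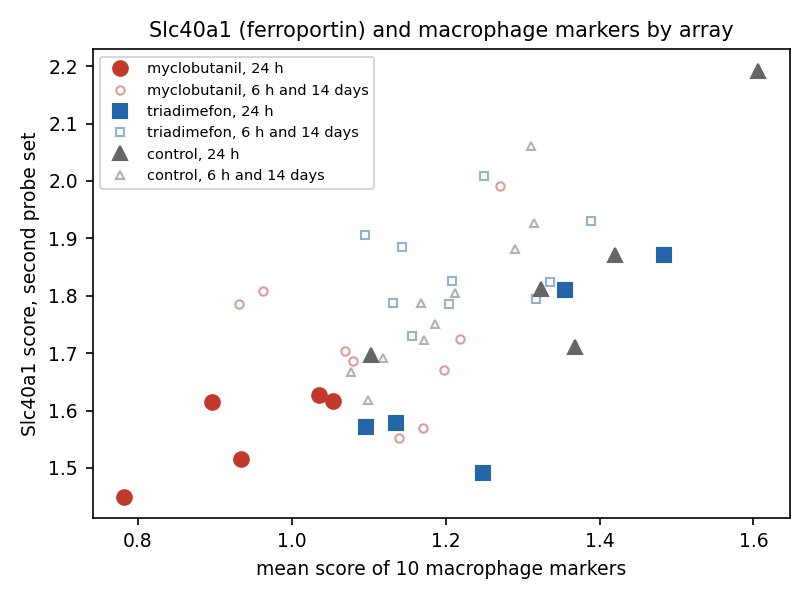
Slc40a1 score on its second probe set (y axis) against the mean score of 10 macrophage markers (x axis) for all 45 arrays, with filled symbols for 24 h and open ones for 6 h and 14 days. The 5 myclobutanil arrays of 24 h sit at the lower left, at marker means of 0.783 to 1.05, and control array 2 of 24 h at the upper right. This is the Slc40a1 probe set, 1 of 3, on which the myclobutanil and control groups of 24 h do not overlap.

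With triadimefon at 24 h the Slc40a1 differences were -0.17, -0.19 and -0.10, and none passed (limma adjusted p = 0.16, 0.12 and 0.094), as no member gene did in that comparison, where 7.98% of all probe sets passed. Triadimefon against myclobutanil at 24 h gave 0.08, 0.10 and 0.07 (adjusted p = 0.79, 0.73 and 0.49), so a difference between the compounds was not shown. After 6 h of myclobutanil the first probe set averaged 1.61, and after triadimefon 1.82, against 1.85 in controls, and the myclobutanil and control groups did not overlap. Triadimefon against myclobutanil at 6 h did not overlap on 2 of 3 probe sets, as held for 1.82% of all probe sets, with differences of 0.21 each (adjusted p = 0.4 and 0.44). At 14 days the 3 probe sets lay within 0.13 of control with either compound.

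Tfrc, the transferrin receptor through which cells take up iron, changed with time in the controls. It scored 1.85, 2.74, 2.20, 2.00 and 2.11 in controls at 24 h, against 1.41, 1.83, 1.64, 1.63 and 1.47 in controls at 6 h, without overlap. The rise was 0.58 ± 0.15 on the first probe set (SE, n = 5 each, limma adjusted p = 0.026) and 0.55 ± 0.14 on the second (0.022), in a comparison where 2.78% of all probe sets passed and 2.5% did not overlap. Tfrc was the 1 member gene that passed between control times, since none did at 14 days against 6 h (3.33% of all probe sets) or against 24 h (0.238%). Leaving out control array 1, 3 or 5 of 6 h, or 2 or 3 of 24 h, ended the call on both probe sets (adjusted p up to 0.13 and 0.11).

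Against controls of the same time, Tfrc averaged 1.98 with myclobutanil and 2.02 with triadimefon at 6 h, against 1.60 in controls. All 5 myclobutanil livers and 4 of 5 triadimefon livers lay above the control mean, and the groups overlapped. At 24 h and 14 days its 2 probe sets differed from control by -0.15 to 0.18 and none passed (limma adjusted p of 0.58 or more). With triadimefon at 14 days, Tfrc was lower than with myclobutanil in 5 of 5 livers, by 0.33 ± 0.15 (SE, n = 5 each), which also did not pass (adjusted p = 0.38).

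**Figure D3:**
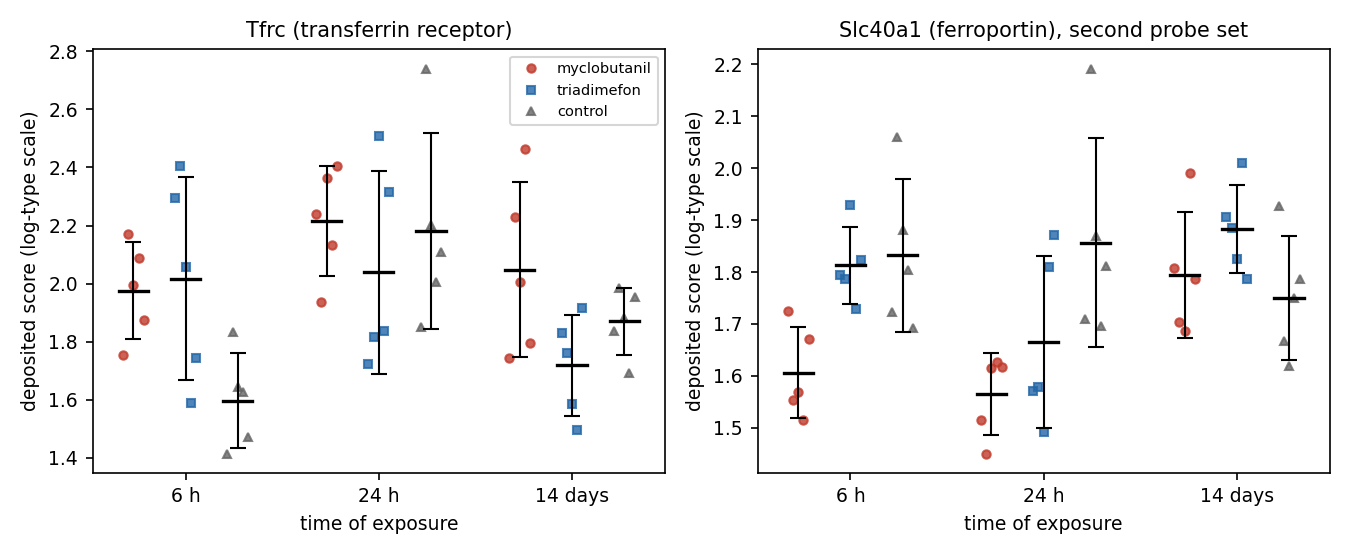
Scores (y axes, log-type scale) of Tfrc on its first probe set and of Slc40a1 on its second, for every liver array at each time, with group means and SDs of 5 arrays. Tfrc in controls is higher at 24 h than at 6 h, and Slc40a1 with myclobutanil at 24 h lies under all controls of that time on this probe set, 1 of 3.

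Tfr2, which senses transferrin iron on hepatocytes, and the ferritin signals did not pass against control at 24 h or 14 days. They also did not pass between the compounds or between control times. Tfr2 with myclobutanil at 24 h averaged 1.70, against 1.84 in controls, and the difference of -0.15 ± 0.06 (SE, n = 5 each) had a limma adjusted p of 0.12. In the other comparisons with controls at 24 h and 14 days Tfr2 lay between -0.03 and 0.05 of control. The probe set of Fth1 or Fth1-ps5, heavy-chain ferritin or its copy, differed from control by -0.16 to 0.19 at these times, and the probe set of Ftl1 or its copies, light-chain ferritin, by -0.04 to 0.19. The SEs of these differences were 0.16 and 0.13. After quantile normalization the light-chain signal was higher at 24 h with both compounds, as given in the closing section.

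The SMAD targets Id1 and Smad7 stayed close to control of the same time in all groups. Against control, Id1, a DNA-binding inhibitor, differed by 0.01 to 0.05 over both compounds and all times. Smad7, which dampens SMAD signalling, differed by -0.07 to 0.10 over its 3 probe sets. Neither gene passed at 24 h or 14 days (limma adjusted p of 0.43 or more for Id1 and 0.17 or more for Smad7). Id1 scored 0.17 to 0.29 with myclobutanil and 0.20 to 0.28 with triadimefon at 6 h, against 0.20 to 0.24 in controls. In controls, Smad7 on its first probe set averaged 0.28 at 6 h, 0.09 at 24 h and 0.11 at 14 days. Control Id1 averaged 0.22, 0.15 and 0.16. Between control times limma adjusted p was 0.12 or more for Smad7 and 0.29 or more for Id1. Both genes lie near the array medians in score.

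**Figure D4:**
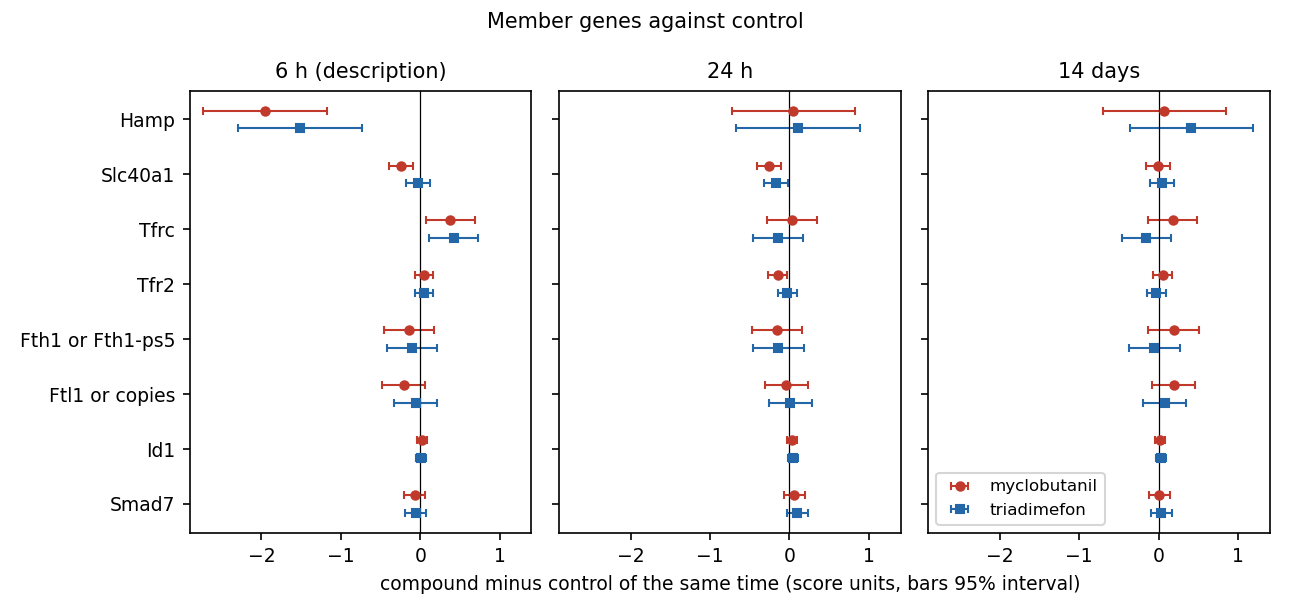
Compound minus control of the same time (x axis, score units, 95% intervals) for the first probe set of each member gene, with myclobutanil as circles and triadimefon as squares. At 6 h, where the values are a description, Hamp lies at -1.95 and -1.51, and the other members stay within 0.5 of 0 at all times.

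Within groups Smad7 followed Hamp, with the highest positive correlation among the first probe sets of all genes. Over the 45 arrays, after each group's mean was subtracted, the correlation of Smad7 with Hamp was 0.59 on its first probe set (Spearman 0.54), rank 1 of 14216 genes, and 0.49 and 0.35 on the others. On the first it was 0.69 over myclobutanil arrays, 0.61 over triadimefon arrays and 0.42 over controls, 15 each. The other probe sets split otherwise, the second with 0.08, 0.77 and 0.67 and the third with 0.65, 0.24 and 0.08. By time the first probe set gave 0.77 at 6 h, 0.57 at 24 h and 0.08 at 14 days, 15 arrays each. Over all arrays it gave 0.56 without the 2 farthest from the median of Hamp. At 6 h the myclobutanil livers with the highest Hamp, arrays 1 and 5, had Smad7 scores of 0.28 and 0.49, and the other 3 had 0.08, 0.08 and 0.11. Id1 showed no such relation, with r = 0.02. Close behind Smad7 came Hspg2 and Itgb7, at 0.56 each. Stronger correlations of the opposite sign were held by Pex3 (-0.67), Dgkh (-0.65), Ptpn21 (-0.62), Hccs (-0.62) and Golga5 (-0.61). Points share array scaling and 14216 genes were ranked, so the rank is a description, and Smad7 probe sets correlated with each other by only 0.21 to 0.76.

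Tfrc ran opposite to Hamp within groups. The correlation of deviations was -0.51 on the first probe set and -0.59 on the second (Spearman -0.51 and -0.62), which ranks the gene 72nd from the lowest of 14216. It was -0.46 over myclobutanil arrays, -0.79 over triadimefon arrays and -0.01 over controls, and -0.59 at 6 h, -0.56 at 24 h and -0.17 at 14 days. In triadimefon livers at 6 h the 2 with the lowest Hamp, arrays 1 and 2, had the highest Tfrc, 2.30 and 2.40. Over all times Slc40a1 and the ferritin signals had correlations of deviations between -0.04 and 0.10 with Hamp, and Tfr2 had -0.30. For Slc40a1 this pooled unlike times, with 0.66 at 6 h, -0.30 at 24 h and 0.44 at 14 days on the first probe set. The second gave 0.59, -0.24 and 0.43, and the dim one 0.21, -0.25 and 0.44.

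The gene most like Hamp over all 45 arrays was Usf2, a transcription factor gene that is the next protein-coding gene after Hamp on the chromosome in RefSeq. The correlation was 0.72 (Spearman 0.81), rank 1 of 14216, and 0.74 without the 2 arrays farthest from the median of Hamp, 0.72 over the 30 arrays of 24 h and 14 days, and 0.53 after group means were subtracted. A second Usf2 probe set gave 0.75, and 0.60 after group means were subtracted, slightly above the 0.59 of the first Smad7 probe set, and the remaining one, with a mean score below 0, gave 0.05. Usf2 averaged 1.04 with myclobutanil and 1.06 with triadimefon at 6 h, against 1.18 in controls. The gene beyond it, Lsr, had r = -0.26, and the gene on the other side of Hamp, Mag, had 0.17. The next most alike were Uhrf2 (0.71), Nectin1 (0.64), Apbb2 (0.64) and Mapk8ip1 (0.63), and the most opposite was Rint1 (-0.69).

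**Figure D5:**
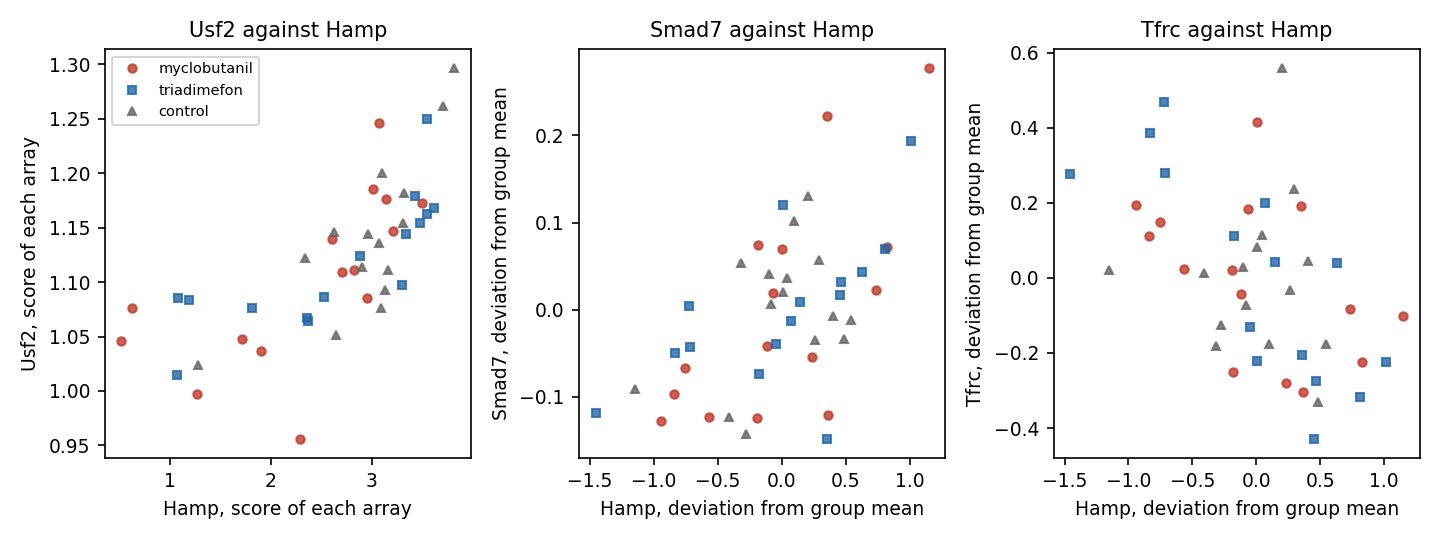
Each point is 1 of 45 liver arrays, with Hamp on the x axes. Usf2 is plotted by score (left), and Smad7 (middle) and Tfrc (right) as deviations from the group mean in score units; r is 0.72 for Usf2, 0.59 for Smad7 and -0.51 for Tfrc.

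In the wider network that controls hepcidin the share of genes called at 24 h was not above that of all probe sets, dim ones included. Of 30 measured genes of hepcidin signalling none passed at 14 days, beside 0.792% of all probe sets with myclobutanil and 6.69% with triadimefon. At 24 h 2 fell with myclobutanil and 2 fell with triadimefon, beside 8.47% and 7.98% of all probe sets called. With only the 15521 probe sets above the median level, 2327 and 2507 were called, a larger share. The list medians at 24 h were -0.05 and -0.02, where those of all probe sets were -0.01 and -0.0045. At 6 h, as a description, the list medians were -0.02 with myclobutanil and -0.01 with triadimefon. Hfe, the haemochromatosis protein that partners the transferrin receptors, scored 0.925 to 1.06 with triadimefon at 24 h, against 1.12 to 1.28 in controls, with no overlap, as held for 5.61% of all probe sets. It fell by 0.23 ± 0.05 (SE, n = 5 each, limma adjusted p = 0.0016), and the call held whichever array was left out. Cebpa, a transcription factor of hepatocytes, fell by 0.38 (adjusted p = 0.026), and all 5 of its probe sets fell. With myclobutanil the cytokine receptor subunit Il6st fell by 0.22 (adjusted p = 0.045) and the kinase Jak2 by 0.11 (0.0025). Jak2 averaged -0.02 with myclobutanil and 0.09 in controls, near the array medians in score. Il6st has 4 probe sets, of which 1 more fell and 1 was at 0.05. The Cebpa call was lost without control array 2 or 5 or triadimefon array 1, 3 or 5 (adjusted p up to 0.14), the Il6st call without control array 2, 3 or 5 or myclobutanil array 1, 2, 4 or 5 (up to 0.17), and both after quantile normalization. Bmp6, the ligand, and Hjv, its co-receptor, did not pass against control at 24 h or 14 days. Hjv was lowest in triadimefon livers of 24 h, at -0.29 ± 0.11 (SE, n = 5 each, limma adjusted p = 0.096).

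Of 21 measured genes of iron uptake, release and transfer, 2 rose, 3 fell and 16 did not pass at 24 h with each compound, against the same controls and beside 8.47% and 7.98% of all probe sets called. Steap3, which reduces iron in the endosome, scored 0.42 to 0.62 with myclobutanil and 0.36 to 0.51 with triadimefon, against 0.60 to 0.96 in controls. The differences were -0.28 ± 0.06 (limma adjusted p = 8e-04) and -0.37 ± 0.06 (3.4e-05), and both held whichever array was left out (SE, n = 5 each). At 6 h Steap3 scored 0.38 to 0.55 with myclobutanil and 0.32 to 0.46 with triadimefon, against 0.60 to 0.71 in controls.

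Ncoa4, the carrier that delivers ferritin for breakdown, fell at 24 h by 0.25 with myclobutanil (limma adjusted p = 0.0043) and by 0.19 with triadimefon (0.033). Slc22a17, a receptor for lipocalin, fell by 0.15 and 0.10 (adjusted p = 0.0014 and 0.03). The mitochondrial iron carriers Slc25a37 and Slc25a28 rose, Slc25a37 by 0.13 (lost without myclobutanil array 5) and 0.18 and Slc25a28 by 0.15 and 0.13. With triadimefon the calls were lost for Ncoa4 and Slc22a17 after quantile normalization and without control array 2 or 3 or triadimefon array 1 or 2, among others (adjusted p up to 0.19 and 0.15), and for Slc25a28 without control array 3, 4 or 5 or triadimefon array 1, 2 or 5 (up to 0.14). Slc25a37 scored 0.41 to 0.51 with triadimefon, against 0.24 to 0.32 in controls, with no overlap. The median over the list was -0.04 with myclobutanil and -0.07 with triadimefon. At 14 days the 1 gene to pass was Fbxl5, the iron sensor that degrades an iron regulatory protein, which rose with triadimefon by 0.13 ± 0.03 (SE, n = 5 each, adjusted p = 0.0033). Of all probe sets 6.69% passed in that comparison.

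Among 16 genes of haem and oxygen sensing, Alas1, the first enzyme of haem synthesis, was the one with the largest change. At 24 h it rose by 0.94 ± 0.17 with myclobutanil (limma adjusted p = 0.00025) and by 1.11 ± 0.17 with triadimefon (4.8e-05), in 5 of 5 livers of each compound (SE, n = 5 each). At 6 h it averaged 3.14 and 3.01 with the compounds, against 2.20 in controls. Hmox1, which breaks haem down, averaged 1.36 with myclobutanil and 0.90 with triadimefon at 6 h, against 0.91 in controls. It was lower with triadimefon than with myclobutanil at 6 h, by 0.46 ± 0.07 (SE, n = 5 each, adjusted p = 2e-04). With Alas1 counted, 2 of the 16 genes rose and 3 fell with myclobutanil at 24 h, and 2 rose and 1 fell with triadimefon. Of all probe sets 8.47% and 7.98% were called in these comparisons. With myclobutanil at 24 h Blvrb rose, while Blvra, Hif1a and the haemoglobin scavenger Cd163, also among the macrophage markers, fell. The Hif1a and Cd163 calls were lost without control array 2, 3 or 5 and others (adjusted p up to 0.16 and 0.13). With triadimefon Flvcr1, which lies near the array medians in score, rose, though not without control array 2 or triadimefon array 4 (0.081), and Blvra fell. Nothing on the list passed at 14 days, where 0.792% of all probe sets did with myclobutanil and 6.69% with triadimefon. The list medians at 24 h were -0.02 with myclobutanil and -0.04 with triadimefon.

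Of 14 acute-phase genes, which follow the same inflammatory signals as hepcidin, A2m fell at 24 h with triadimefon by 0.42 and Lbp rose at 14 days, by 0.35 with myclobutanil (limma adjusted p = 0.018) and by 0.50 with triadimefon (8.5e-05). The A2m call was lost without control array 2 or 3 or triadimefon array 5 (up to 0.094), and the Lbp call with myclobutanil without control array 3 or 4 or myclobutanil array 1 or 4 (up to 0.15). No other gene of this list passed at 24 h or 14 days. Of all probe sets 8.47% with myclobutanil and 7.98% with triadimefon passed at 24 h, and 0.792% and 6.69% at 14 days. At 24 h the median difference of the list was -0.21 with myclobutanil and -0.18 with triadimefon, beside -0.23 and -0.19 over the hepatocyte markers. At 6 h, as a description, it was -0.09 and -0.07, beside -0.18 and -0.09 over the hepatocyte markers. Erythroid markers, 8 measured, did not pass against control at 24 h or 14 days. Their mean score at 6 h ran from 0.34 to 0.43 with myclobutanil and from 0.35 to 0.43 with triadimefon, against 0.36 to 0.58 in controls.

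Set directly against each other, triadimefon and myclobutanil gave no member gene that passed at any time, where 0.251%, 1.06% and 0.332% of all probe sets did at 6 h, 24 h and 14 days. For Hamp the difference was 0.44 at 6 h (95% interval -0.34 to 1.22), 0.06 at 24 h (-0.72 to 0.84) and 0.34 at 14 days (-0.44 to 1.12), with limma adjusted p of 0.92, 0.98 and 0.75. Over all 13 member probe sets and 3 times the lowest adjusted p was 0.38, for Tfrc at 14 days. The doses differ, and these intervals do not show that the compounds act alike.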

How the data were processed

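Liver RNA of 45 arrays was analysed in 9 groups of 5, taken from the sample titles. The authors deposited 1 score per probe set and array, on a log-type scale from -0.98 to 5.69 with array medians between -0.012 and 0.033; how it was summarised and normalized, and its base, are not given in the sources used here, so the log2 scale foreseen in the design was not assumed. From these scores limma 3.58.1 (R 4.3.3) fitted 1 mean per group to 31042 probe sets, 57 control probe sets left out, with p-values adjusted by Benjamini-Hochberg over all probe sets of each of 16 comparisons and a threshold of 0.05. Intervals are 95%. The probe set of highest mean, called the first, stands for a gene, and lists name the genes that passed. The fit was tested on simulated data. Symbols came from the platform annotation, which gives 20826 probe sets 1 gene, 436 several and 9780 none. Promoter windows are from RefSeq GRCr8. The members, the lists of signalling, iron, haem and acute-phase genes and the cell type markers were chosen with earlier results of these data known. Correlations with Hamp are descriptions without p-values. Alternatives tried were quantile normalization, a common median, a filter on dim probe sets, trend and robust moderation, the file-name ending, a replicate block, only the groups compared, any probe set of a gene, an adjusted p under 0.01, and leaving out each array.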

Additional observations from a re-analysis of the deposited data

Results flagged for a closer look

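The Hamp difference ran in opposite directions with triadimefon at 2 times. At 6 h all 5 triadimefon livers lay below the control mean, with a difference of -1.51, and at 14 days all 5 lay above it, with a difference of 0.41. The change of the difference between these times was 1.93 ± 0.54 (SE) and did not pass in the fit as reported. That change is no independent test, because the 6 h values chose the gene. The 14-day difference alone, 0.41 ± 0.38 (SE), also did not pass (limma adjusted p = 0.54).

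For Tfr2, 2 single livers lay far from the rest of their group. With myclobutanil at 6 h array 2 scored 1.94, where the other 4 ran from 1.71 to 1.75, and with myclobutanil at 14 days array 4 scored 1.97, where the other 4 ran from 1.74 to 1.77. They were picked out by a gap that takes up most of the range of the group, a rule that chance meets in about 1 of 20 groups, and 72 groups of member genes were looked at.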

How the results depend on the processing

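The number of member genes past the threshold, from 0 to 1 in each comparison, moved as follows; counts that involve 6 h rest on the values that chose Hamp and test nothing. Quantile normalization gave 2 for myclobutanil at 6 h, 1 for triadimefon at 24 h, 1 for triadimefon against myclobutanil at 24 h, 1 for controls at 14 days against 6 h, and 2, 1 and 2 for the change of the effect of myclobutanil from 6 h to 24 h and of triadimefon to 24 h and to 14 days. It turned the Ftl1 signal with myclobutanil at 24 h to 0.17 (adjusted p = 0.00024), where the deposited values gave -0.04, and gave 0.16 (0.00097) with triadimefon, and the cause was not tested. Only arrays of ending 11 left 0 for both compounds at 6 h and for the myclobutanil change to 24 h, with fewer arrays. Only the groups compared left 0 for myclobutanil at 6 h and 24 h, for controls at 24 h against 6 h and for the myclobutanil change to 24 h, and gave 1 for triadimefon at 14 days and for its change to 14 days. Trend and robust moderation left 0 for triadimefon at 6 h and the myclobutanil change to 24 h, and the ending as a covariate left 0 for triadimefon at 6 h. An adjusted p under 0.01 left 0 for triadimefon at 6 h, myclobutanil at 24 h, controls at 24 h against 6 h and the myclobutanil change to 24 h. A common median, and the filter on dim probe sets, each gave 1 for the triadimefon change to 14 days. Leaving out 1 array gave 0 to 1 for triadimefon at 6 h, myclobutanil at 24 h, controls at 24 h against 6 h and the 4 changes of an effect. Same-numbered arrays showed little shared deviation over the 9 arrays of a number (mean correlations of -0.003 to 0.06). A mean over all times and compounds cannot exclude pairing within a time. With a replicate block the count for the myclobutanil change to 24 h was 0, against 1 without it, and the block moved no other count. Low signal limits Id1, Smad7, Jak2, Flvcr1 and the dim Slc40a1 probe set, and 5 arrays a group limit all intervals.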
